A study of Mus musculus with 6 samples.

Results

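The genes described here encode the proteins of the mitochondrial ribosome, measured in macrophages grown from mouse bone marrow and, by their label, polarized to the M2 state. They are the genes whose symbol starts with Mrpl (large subunit names) or Mrps (small subunit names) followed by a digit. The RefSeq gene table holds 84 such symbols, of which 6 are pseudogenes with no probe named here, 78 have a named probe, and 74 were bright enough to be tested, out of 10947 genes tested in all. Cells given WGP, the label's name for whole glucan particles (beta-glucan shells of yeast), were kept 6 h in complete DMEM with WGP. The other group was kept 6 h in complete DMEM without it. Both groups came from C57BL/6 mice of 6 to 8 weeks and carried the same M2 polarization, so an unpolarized state is not part of the comparison. The series asks how WGP changes gene expression in M2 macrophages, and each group had 2 independent 1-colour Agilent arrays of total RNA. The labels do not say whether replicates were separate mice or separate cultures, so the p-values below measure the spread between these arrays, which may be technical.

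Mitochondrial ribosomes sit in the mitochondrial matrix and translate the few mRNAs that mitochondrial DNA encodes, all of them for membrane subunits of the respiratory chain and the ATP synthase. Their proteins are encoded in the nucleus, made by cytosolic ribosomes and imported, while their rRNAs are transcribed from mitochondrial DNA. Some of the proteins descend from proteins of bacterial ribosomes, and others are found in mitochondrial ribosomes with no bacterial counterpart. In macrophages, the respiratory chain that these ribosomes help to build is known for its part in the metabolic differences between polarization states.

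Promoter sequence is shown for the members with the largest rise and the largest fall, for Mrps18b and for 2 short stretches between paired starts, so that the values can be set beside the DNA. The 250 bases before the start of Mrpl52, which rose most, lie at chr14:54426659-54426908 on the plus strand. Those of Mrps18b, a member past 2-fold whose call held in every setting, lie at chr17:35916441-35916690 on the minus strand. Those of Mrpl42, which fell most, lie at chr10:95501950-95502199 on the minus strand. The bases between the starts of Mrpl46 and Mrps11 (chr7:78783090-78783130, read on the strand of Mrpl46) and between those of Mrpl30 and Mitd1 (chr1:37890412-37890476, read on the strand of Mrpl30) are shown because each pair shares the short stretch and only 1 gene of each pair passed the test. Sequences and starts are RefSeq's on GRCm38.p6, each is written 5′ to 3′ towards the named gene, and capitals mark matches to the letters CCGGAAG (bound by GABP) or GGGCGG (bound by SP1) on either strand.
Mrpl52: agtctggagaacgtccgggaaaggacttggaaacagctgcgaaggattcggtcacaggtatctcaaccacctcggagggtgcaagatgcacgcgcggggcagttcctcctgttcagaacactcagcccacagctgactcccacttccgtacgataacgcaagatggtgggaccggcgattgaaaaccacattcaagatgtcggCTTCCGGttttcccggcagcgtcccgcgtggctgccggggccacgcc
Mrps18b: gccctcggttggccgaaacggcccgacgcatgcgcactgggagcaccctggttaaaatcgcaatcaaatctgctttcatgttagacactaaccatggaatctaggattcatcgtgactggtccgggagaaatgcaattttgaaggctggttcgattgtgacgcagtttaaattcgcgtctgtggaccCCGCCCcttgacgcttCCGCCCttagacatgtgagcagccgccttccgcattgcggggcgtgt
Mrpl42: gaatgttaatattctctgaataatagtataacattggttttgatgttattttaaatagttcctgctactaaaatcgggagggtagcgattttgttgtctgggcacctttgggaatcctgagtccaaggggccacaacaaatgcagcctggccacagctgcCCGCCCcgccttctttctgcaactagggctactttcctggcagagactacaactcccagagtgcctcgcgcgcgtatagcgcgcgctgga
Mrpl46 and Mrps11: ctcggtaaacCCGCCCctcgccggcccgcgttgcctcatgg
Mrpl30 and Mitd1: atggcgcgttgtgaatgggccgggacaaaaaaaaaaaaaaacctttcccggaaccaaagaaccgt

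A level here is log2 of a probe's processed intensity over the array's 75th percentile, and a difference is the mean level with WGP minus that in medium. That percentile was 59.2 and 56.1 intensity units on the WGP arrays and 85.8 and 68.6 on the medium arrays. Probes well above background made up 46.6% and 45.0% on the WGP arrays and 50.6% and 46.5% on the medium arrays. Each slide held 1 array of each group, with WGP always at position 3 and medium at position 1, so position and treatment cannot be told apart. All 13 named genes of the macrophage list (among them Csf1r, Adgre1 and Mrc1) were above background, and of these 3 rose (Marco, Cd14 and Spi1) and 5 fell (Mertk by 1.89, Fcgr1 by 1.19, Fcgr3 by 1.12, Mrc1 by 0.64 and Lyz2 by 0.47). The list's summed levels, which its brightest probes carry, were 11.1 and 11.0 with WGP and 10.8 and 10.8 in medium. Of the dendritic cell list, 3 of 7 genes were above background, with summed levels of 7.66 and 7.75 with WGP and 6.92 and 6.33 in medium. Ccr7 (0.84) and Siglech (1.08) of its 3 tested genes rose. Of the T cell list, 6 of 10 were above background, with sums of 5.37 and 5.59 with WGP and 5.87 and 5.92 in medium, and no mast cell or basophil gene of 6 was. Of the 5 tested T cell genes, Cd28 fell by 1.03 and the others were not called. The B cell list, with 3 of 7 above background, summed to -0.86 and -0.56 with WGP and 0.45 and 0.22 in medium. Of its 3 tested genes, Cd79a and Cd79b were called lower. Both were kept only through the medium arrays, where they were higher, so these calls add no independent support. The erythroid list, with 2 of 6, summed to -1.25 and -1.49 with WGP and 0.36 and 0.069 in medium. Both tested genes were called lower, and only 1 of the 2 was well above background on all 4 arrays. Counts above background were 7 of 9 for neutrophils, 4 of 7 for fibroblasts and 2 of 7 for NK cells, and 0, 1 and 0 of their tested genes were called. Over all genes tested, 23.2% were called higher and 17.4% lower, so calls in such short lists are descriptions. The part of such cells in the results was not tested, and in bulk RNA fewer cells of a type cannot be told apart from less RNA per cell.

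Mitochondrial ribosomal protein mRNAs had a positive difference in 53 of 74 genes (71.6%), against 5658 of 10947 (51.7%) over all genes tested, and most differences were small. Of the 74 tested, 20 rose and 5 fell at an adjusted p under 0.05, and 49 did not pass. Of the 5, Mrps9 was bright enough to be tested only through the medium arrays, where it was higher. Over all genes tested, 40.6% were called, 23.2% higher and 17.4% lower, so the 27.0% of members that rose lay near the background and the 6.76% that fell lay below it. The median difference over the members was 0.22, with a middle range of -0.026 to 0.45, against a median of 0.028 and a middle range of -0.38 to 0.43 over all genes. Only 4 of the 74 members rose by at least 2-fold, against 881 of 10947 genes (8.05%). Of the members 0 fell that far, against 730 of all genes (6.67%).

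The SD of the differences between groups was 0.45 over members and 0.87 over all genes. The SD of the difference between replicate arrays was also smaller over members, at 0.18 with WGP and 0.19 in medium, than over all genes, at 0.37 with WGP and 0.39 in medium. Levels of the WGP and medium arrays did not overlap, with WGP higher, in 43 of the 74 members and in 4453 of all 10947 genes (40.7%). With WGP lower this held for 13 of the 74 members and 3765 of all genes (34.4%). The difference had the same sign on both slides for 59 of the 74, and the members' median was 0.20 on slide 1 and 0.24 on slide 2. When arrays were scaled to their medians, the median difference was 0.39 over the members and 0.19 over all genes, with 30 members higher and 1 lower. Either scaling leaves the members' median 0.19 above that of all genes by construction, and this gap was 0.13 with quantile normalization, 0.062 with normexp and the 75th percentile and 0.10 with normexp and quantile normalization.

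**Figure D1:**
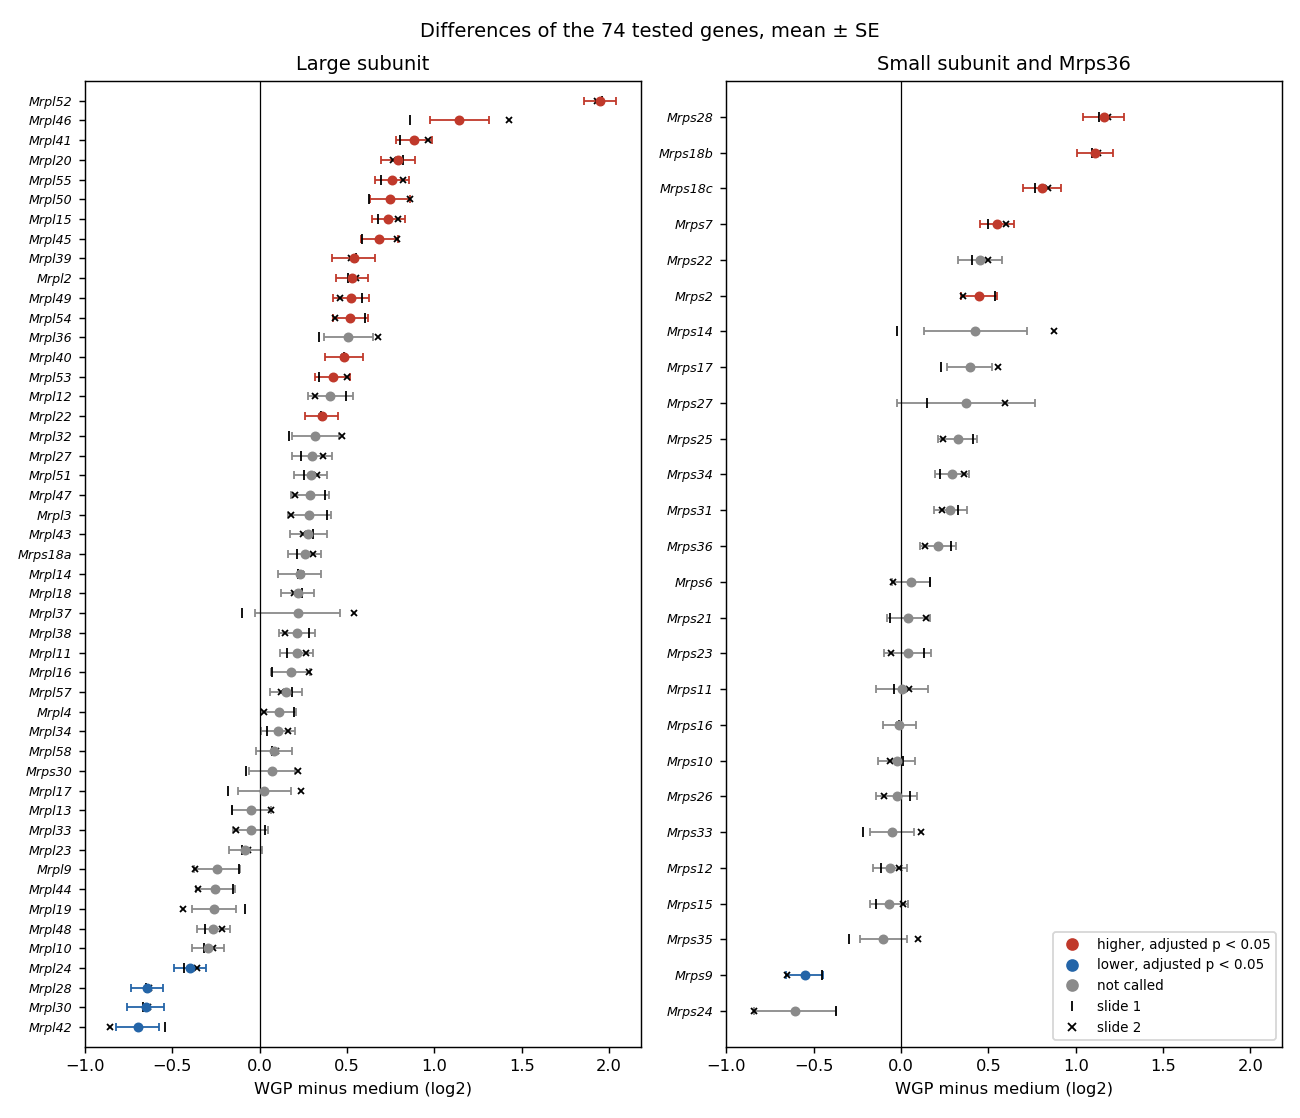
Difference between WGP and medium (log2, horizontal axis) for each of the 74 tested genes (vertical axis), with the large subunit on the left and the small subunit with Mrps36 on the right. Circles are means with the model's standard error, bars and crosses are the differences on slides 1 and 2, and the Mrpl52 point at 1.95 stands apart from the other large subunit genes.

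Mrpl52 had the highest difference of all members. It encodes a large subunit protein with no bacterial counterpart. Its level was 6.59 and 6.55 on the WGP arrays, against 4.63 and 4.62 on the medium arrays, a difference of 1.95 ± 0.092 (SE, n = 2 each, limma adjusted p = 0.0015) or 3.85-fold. Both WGP arrays lay far above both medium arrays, and replicates of each group lay close together. Its printed promoter holds 1 GABP match, whose first base is 47 bases before the start.

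Mrpl46, a protein of the central protuberance of the large subunit, was the other large subunit gene past 2-fold. Its level was -1.35 and -1.12 with WGP and -2.21 and -2.54 in medium, a difference of 1.14 ± 0.17 (adjusted p = 0.0113). The groups did not overlap, although replicates of this dim probe differed more than those of Mrpl52. On slide 1 the difference was 0.86 and on slide 2 it was 1.42. With normexp background correction, which adds an offset of 50 to each signal, Mrpl46 kept its call with a difference of 0.38 (75th percentile scaling) or 0.31 (quantile normalization).

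Mrpl41, known in mammals for a reported link to p53 besides its place in the large subunit, had levels of 3.80 and 3.82 with WGP, against 3.00 and 2.85 in medium. It rose by 0.88 ± 0.10 (adjusted p = 0.00702). Its dimmer probe gave 0.23 (adjusted p = 0.405 in the fit of all probes), so the size of the rise rests on the brighter one, and the mean of both probes gave 0.56. Mrpl20, the counterpart of bacterial L20, had levels of 5.54 and 5.58 with WGP and 4.72 and 4.82 in medium and rose by 0.79 ± 0.099 (adjusted p = 0.00801). In both genes the lowest WGP array exceeded the highest medium array by more than the replicates differed.

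Mrpl55, a mitochondria-specific large subunit protein, had levels of 4.20 and 4.23 with WGP and 3.51 and 3.41 in medium, a rise of 0.76 ± 0.098 (adjusted p = 0.00851). Mrpl50, also without a bacterial counterpart and linked in humans to disease, had 0.23 and 0.27 with WGP and -0.39 and -0.59 in medium, a rise of 0.74 ± 0.11 (adjusted p = 0.0127). Mrpl15, the counterpart of bacterial L15, had 2.21 and 2.24 with WGP and 1.53 and 1.45 in medium, a rise of 0.74 ± 0.096 (adjusted p = 0.00873). No WGP array of these genes overlapped a medium array. A second probe of Mrpl15 rose too, by 0.57 (adjusted p = 0.0306). Each of these calls was lost with an array left out: without WGP array 2 the adjusted p was 0.0507 for Mrpl55, 0.0631 for Mrpl50 and 0.0529 for Mrpl15, and without WGP array 1 it was 0.0581 for Mrpl50. With both normexp settings the difference of Mrpl50 was 0.38 and still passed.

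The other 8 large subunit genes that rose had smaller differences, between 0.35 and 0.68. They were Mrpl45, which anchors the ribosome at the inner membrane near the exit of the peptide tunnel (0.68), Mrpl39 (0.54), Mrpl2, which lies near the peptidyl transferase centre in bacteria (0.53), Mrpl49 (0.52), Mrpl54 (0.52), Mrpl40 of the central protuberance (0.48), Mrpl53 (0.42) and Mrpl22, which lines the peptide tunnel (0.35). Mrpl45 kept its call in 2 of the 4 fits that left out 1 array, and the other 7 in 0 of 4, where their adjusted p was 0.0516 or more. With the slide as a block, Mrpl22 (adjusted p = 0.0766) and Mrpl53 (0.0635) did not pass. Mrpl22, Mrpl39, Mrpl40, Mrpl49, Mrpl53 and Mrpl54 did not pass with quantile normalization. Mrpl22 also did not pass with either normexp setting, and Mrpl53 did not with normexp and the 75th percentile. Dimmer probes of Mrpl22 (0.030), Mrpl40 (0.30) and Mrpl49 (0.28) did not pass. With the mean of a gene's probes, Mrpl22 and Mrpl40 lost their calls. Over the whole large subunit, 15 of 48 tested genes rose (31.25%) and 4 fell (8.33%), with a median difference of 0.24. The shares over all genes tested were 23.2% and 17.4%.

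In the small subunit, 5 of 25 tested genes rose (20%) and 1 fell (4%), with a median difference of 0.058. Both shares lay below those of all genes tested, 23.2% and 17.4%. The difference between the subunits was not tested. Mrps28, the counterpart of bacterial S1 and linked in humans to a mitochondrial disorder, had levels of 3.72 and 3.89 with WGP, against 2.58 and 2.71 in medium. It rose by 1.16 ± 0.12 (adjusted p = 0.00516), 2.24-fold, and both WGP arrays lay far above both medium arrays. Mrps7, a protein of the head of the small subunit, rose by 0.55 (adjusted p = 0.0170) and Mrps2, the counterpart of bacterial S2, by 0.45 (adjusted p = 0.0328). Mrps7 kept its call without 1 of the 4 arrays (medium array 1, adjusted p = 0.0429), and Mrps2 in 0 of the 4 fits. Mrps2 also missed the threshold with the slide as a block (0.0579) and with the mean of its probes, which gave 0.21, and that mean gave 0.36 for Mrps7.

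Mammals have 3 homologues of bacterial protein S18, of which Mrps18c takes the bacterial position while Mrps18a and Mrps18b sit elsewhere and are counted below with the members that lack a bacterial counterpart. Mrps18b, in the small subunit, had levels of 4.84 and 4.75 with WGP and 3.75 and 3.62 in medium, a rise of 1.11 ± 0.10 (adjusted p = 0.00452), 2.16-fold. Its dimmer probe was not well above background on either medium array and was kept only through the WGP arrays, where it was higher, so its measured difference of 1.11 adds no independent support. Mrps18c, also in the small subunit, had 3.84 and 3.76 with WGP and 3.07 and 2.91 in medium, a rise of 0.81 ± 0.11 (adjusted p = 0.00952), which without WGP array 1 had an adjusted p of 0.0527. Mrps18a, the homologue in the large subunit, had 1.69 and 1.77 with WGP and 1.48 and 1.46 in medium, a difference of 0.26 ± 0.095 that did not pass (adjusted p = 0.0989). In all 3 genes both WGP arrays lay above both medium arrays. Whether the 3 differences differ from each other was not tested.

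**Figure D2:**
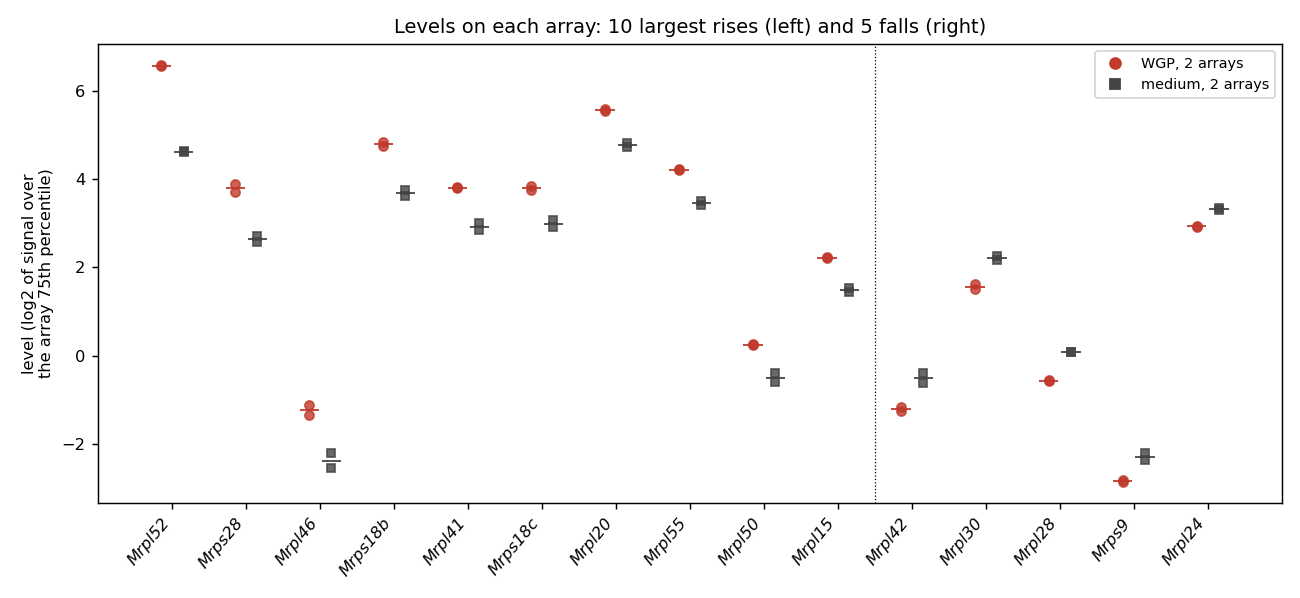
Levels on each array (vertical axis, log2 of signal over the array's 75th percentile) of the 10 members with the largest rise, left of the dotted line, and the 5 that fell, right of it. Red circles are the 2 WGP arrays, grey squares the 2 medium arrays and bars the group means, and in each of the 15 genes the groups do not overlap.

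The 5 members that fell had modest differences, between -0.70 and -0.40, and with arrays scaled to their medians only Mrpl28 still passed (adjusted p = 0.0438). Mrpl42, a mitochondria-specific large subunit protein, had levels of -1.15 and -1.25 with WGP, against -0.61 and -0.39 in medium, and fell by 0.70 ± 0.12 (adjusted p = 0.0170). Mrpl30, the counterpart of bacterial L30, had 1.50 and 1.63 with WGP and 2.17 and 2.26 in medium and fell by 0.65 ± 0.10 (adjusted p = 0.0138). In both, each WGP array lay below each medium array. Their calls were lost without medium array 2 and without either WGP array, where the adjusted p lay between 0.0540 and 0.0798. With normexp, Mrpl42 did not pass, at -0.15 (75th percentile scaling, adjusted p = 0.191) and -0.18 (quantile normalization, 0.0794).

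Mrpl28, the counterpart of bacterial L28, had levels of -0.57 and -0.55 with WGP and 0.080 and 0.082 in medium, the closest replicates of the 5, and fell by 0.64 ± 0.091 (adjusted p = 0.0105). The call was lost without WGP array 1 (0.0646) and without WGP array 2 (0.0601), and with normexp it held with smaller differences of -0.28 (75th percentile scaling) and -0.30 (quantile normalization). Mrpl24, the counterpart of bacterial L24 at the exit of the peptide tunnel, had 2.92 and 2.95 with WGP and 3.36 and 3.31 in medium and fell by 0.40 ± 0.093 (adjusted p = 0.0340). With any 1 array left out it missed the threshold, with adjusted p between 0.0789 and 0.163, and with the slide as a block it missed it too (0.0628). Again neither gene's groups overlapped.

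Mrps9, the counterpart of bacterial S9, was the small subunit gene that fell. Its probe was not well above background on either WGP array, so its level there is not reliably measured. The measured levels were -2.82 and -2.86 with WGP and -2.37 and -2.21 in medium. The difference was -0.55 ± 0.11 (adjusted p = 0.0218), and with the 75th percentile scaling mRNA was at least 1.47-fold lower with WGP. The probe was kept only through the medium arrays, where it was higher. Neither this adjusted p nor the calls of Mrps9 in other fits therefore add independent support. With only probes above background on every array, Mrps9 was not tested and 4 members fell. The dim side of a bound, as given for Mrm2 below, is the higher of the array's lowest signal among probes well above background and the probe's own signal. For Mrps9 such a bound equals the measured ratio. The call was lost without medium array 2 (0.0673), WGP array 1 (0.0919) or WGP array 2 (0.103). It was also lost with quantile normalization (-0.41), with normexp and the 75th percentile (-0.044, adjusted p = 0.779) and with normexp and quantile normalization (-0.22), so the fall of Mrps9 depends on the processing. Mrps35, a mitochondria-specific small subunit protein, was well above background on both medium arrays and 1 of the 2 WGP arrays and did not pass, at -2.89 and -2.63 with WGP and -2.59 and -2.73 in medium.

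Among the 49 genes that did not pass, 23 had both WGP arrays above both medium arrays, 8 had them below, and 18 overlapped. Such separation was common. Over all genes tested, called or not, it was found in 40.7% with WGP higher and in 34.4% with WGP lower. The share among all genes that did not pass was not computed, so these counts are descriptions. The difference was under 0.1 in size for 16 of them. Mrps24, the counterpart of bacterial S3, had the largest, with levels of 1.14 and 1.29 with WGP and 1.52 and 2.13 in medium, a difference of -0.61 ± 0.23 (adjusted p = 0.109). The medium arrays of Mrps24 lay further apart than the groups' nearest values. Mrpl36, the counterpart of bacterial L36, had 3.32 and 3.35 with WGP and 2.98 and 2.67 in medium, a difference of 0.51 ± 0.14. Mrps22, linked in humans to a mitochondrial disorder, had 1.22 and 1.10 with WGP and 0.82 and 0.60 in medium, a difference of 0.45 ± 0.12. These last 2 lay just outside the threshold (adjusted p = 0.0513 and 0.0512), and Mrpl22 just inside it (0.0446). For 25 of the 74 members the 95% interval of the difference lay within 0.5 on either side of 0, whereas for the other members the interval reaches larger changes.

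The stalk proteins did not pass the test. Mrpl10, which anchors the stalk that recruits translation factors, had levels of 1.29 and 1.32 with WGP and 1.62 and 1.59 in medium, a difference of -0.29 ± 0.092 (adjusted p = 0.0678). Mrpl12, the stalk's counterpart of bacterial L7/L12, had 2.01 and 2.09 with WGP and 1.52 and 1.78 in medium, a difference of 0.40 ± 0.13 (adjusted p = 0.0724). Mrpl11, at the stalk base, had 4.37 and 4.42 with WGP and 4.21 and 4.15 in medium, a difference of 0.21 ± 0.095 (adjusted p = 0.150). The arrays of both groups were separate in each of the 3. Mrpl1, of the opposite stalk, was not tested because its probe was well above background on only 1 array of each group, with levels of -1.25 and -3.35 with WGP and -2.86 and -3.57 in medium. Mrps5 was likewise well above background on 1 array of each group, and Mrpl21 and Mrpl35 on 0 arrays.

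By origin, 12 of the 32 tested members with no bacterial counterpart rose (37.5%) and 1 fell (3.1%), with a median difference of 0.29. Of the 41 with a bacterial counterpart, 8 rose (19.5%) and 4 fell (9.76%), with a median of 0.11. Of the 15 members on a list of genes linked to human disease, 5 rose (33.3%: Mrps28, Mrpl50, Mrps7, Mrpl39 and Mrps2) and 1 fell (6.67%: Mrpl24), with a median of 0.40. The shares over all genes tested were 23.2% higher and 17.4% lower. These lists were compiled with results of these data known, so their counts are descriptions.

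A second kept probe was available for 19 members. The probes had the same sign in 14 and opposite signs in 5, and both passed in 1 direction in Mrpl15 and in Mrps18b, whose dimmer probe was kept only through the group where it is higher. The gene with the widest gap was Mrps25, a mitochondria-specific small subunit protein, whose brighter probe gave 0.32 and whose dimmer probe fell by 0.66 (adjusted p = 0.0191 over all probes), with levels of 0.65 and 0.67 with WGP and 1.25 and 1.39 in medium. Mrpl4, the counterpart of bacterial L4, gave 0.11 with the brighter probe, while the dimmer fell by 0.60 (adjusted p = 0.0218), with levels of 0.76 and 0.77 with WGP and 1.42 and 1.30 in medium. In these 2 genes the dimmer probe's groups did not overlap, so the direction of the gene is not settled. Mrps2 (0.45 against -0.031), Mrps23 (0.038 against -0.20) and Mrps33 (-0.052 against 0.10) had dimmer probes of opposite sign that did not pass. The brighter probe had the higher difference in 15 of the 19 members and in 62.0% of the 2168 genes with 2 kept probes.

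**Figure D3:**
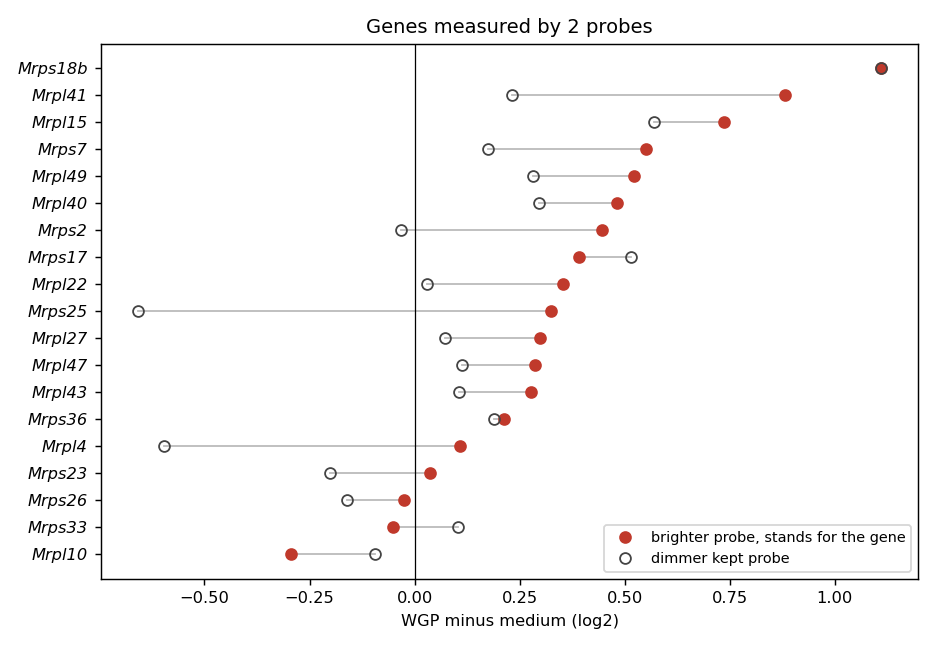
Difference between WGP and medium (log2, horizontal axis) for the 19 members with 2 probes well above background in at least 1 group (vertical axis), for the dimmer Mrps18b probe only in the WGP group. Filled circles are the brighter probe, which stands for the gene, and open circles the dimmer one, and the lines join points on opposite sides of 0 in 5 genes, of which Mrps25 and Mrpl4 have the longest.

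Differences also moved with brightness across the array. Over all genes the median difference was -0.25 where the mean level was below -2, -0.086 between -2 and 0, 0.065 between 0 and 2, 0.17 between 2 and 4 and 0.18 above 4. The 4 members below -2 had a median of -0.18, the 12 between -2 and 0 one of 0.25, and the 19 between 0 and 2 one of 0.22. The 20 members between 2 and 4 had a median of 0.49, with 11 higher and 1 lower, where 33.0% and 15.6% of all genes were called in these directions. The 19 members above 4 had a median of 0.21, close to that of all genes there. Of these members 4 were higher and 0 lower, where 32.2% and 14.3% of all genes were called in these directions. The part of brightness in the results was not tested.

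The members' median lay near that of the respiratory chain and ATP synthase genes and above that of the cytosolic ribosomal protein genes. Of 84 tested respiratory chain and ATP synthase genes, 22 rose (26.2%) and 7 fell (8.33%), with a median difference of 0.24. Of 76 tested cytosolic ribosomal protein genes, 3 rose (3.95%) and 19 fell (25%), with a median of -0.21. Over all genes tested, 23.2% rose and 17.4% fell. Among genes with a level above 4 the medians were 0.21 for 19 members, 0.24 for 49 respiratory chain and ATP synthase genes and -0.21 for 71 cytosolic ribosomal protein genes. The differences between these groups were not tested.

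**Figure D4:**
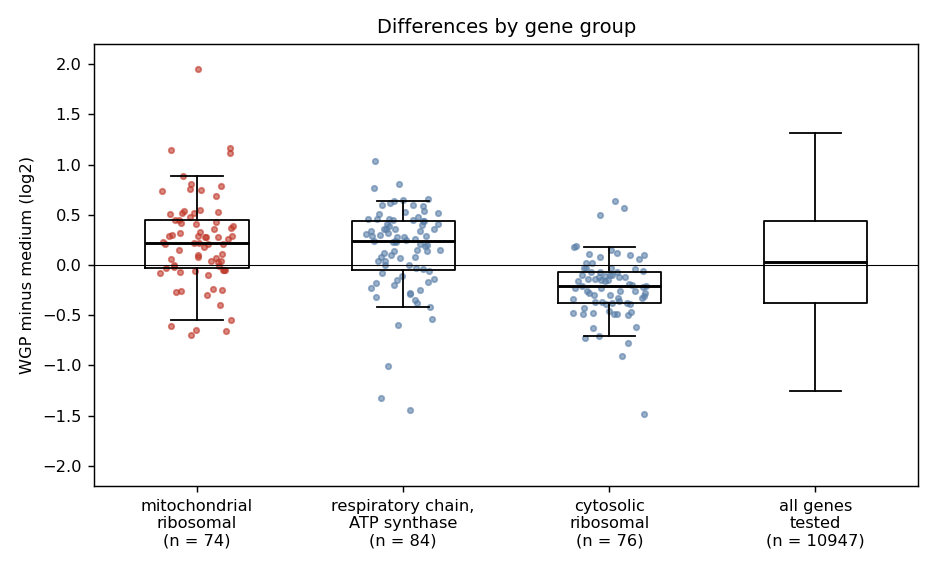
Difference between WGP and medium (log2, vertical axis) for the 74 mitochondrial ribosomal protein genes, 84 respiratory chain and ATP synthase genes, 76 cytosolic ribosomal protein genes and all 10947 genes tested. Points are genes, boxes show the median and quartiles, and whiskers run from percentile 5 to 95, and the medians are 0.22, 0.24, -0.21 and 0.028 in this order.

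A list of ribosomal and ribosome-bound proteins of mitochondria known by other or older symbols held 8 tested genes. Of these, 4 rose (50%) and 1 fell (12.5%), against 23.2% and 17.4% of all genes tested, with a median difference of 0.31. The list includes 2 members that did not pass, Mrpl58, a peptide release factor built into the large subunit (0.081), and Mrps36, also known as a subunit of the 2-oxoglutarate dehydrogenase complex (0.21). Aurkaip1, Dap3 and Chchd1, all of the small subunit, rose by 0.46, 0.44 and 0.41 (adjusted p = 0.0277, 0.0400 and 0.0497), and Oxa1l, the insertase that takes up the nascent chains at the inner membrane, fell by 0.65 (adjusted p = 0.0116). These 3 rises kept their calls in 0 of the 4 fits without 1 array and missed the threshold with quantile normalization, and with the slide as a block Chchd1 (0.0675) and Dap3 (0.0575) did not pass. Oxa1l kept its call in 2 of the 4 but lost it when arrays were scaled to their medians (0.0504) and with the mean of its probes (0.0921).

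Of 13 tested mitochondrial translation factors and mRNA-binding proteins, 4 rose (30.8%) and 0 fell, with a median difference of -0.0035. Over all genes tested, 23.2% rose and 17.4% fell. Gfm1, the elongation factor that moves the ribosome along, rose by 0.74 (adjusted p = 0.00825), and Tsfm, the exchange factor of elongation factor Tu, by 0.73 (0.0168). Lrpprc and Slirp, partners that stabilise mitochondrial mRNAs, rose by 0.55 (0.0326) and 0.45 (0.0452). Without 1 array Gfm1 kept its call in 3 of 4 fits, Tsfm in 1 and the other 2 in 0. With the slide as a block Slirp did not pass (0.0677), and neither Lrpprc nor Slirp did with quantile normalization. Tsfm did not pass with normexp, at 0.17 (75th percentile scaling) and 0.090 (quantile normalization).

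Genes of mitochondrial ribosome assembly moved in both directions. Of 25 tested, 4 rose (16%) and 3 fell (12%), with a median of 0.070. Both shares lay below the 23.2% higher and 17.4% lower of all genes tested. Afg3l2, a subunit of the inner membrane protease that matures Mrpl32, had levels of 1.11 and 1.17 with WGP and -0.67 and -1.11 in medium and rose by 2.03 (adjusted p = 0.00392). Mrpl32 itself had 0.014 and 0.036 with WGP and -0.15 and -0.44 in medium, a difference of 0.32 that did not pass (adjusted p = 0.130). Rbfa, which binds the small subunit during its maturation, had 0.084 and 0.24 with WGP and 1.52 and 1.74 in medium and fell by 1.47 (adjusted p = 0.00398). Groups overlapped in none of these 3 genes.

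Of the rRNA methyltransferases, Nsun4 fell by 1.03 (adjusted p = 0.00826). Mrm1, Tfb1m and Mettl15, also rRNA methyltransferases, did not pass, with differences of 0.17, 0.046 and 0.51. Mrm2 was not well above background with WGP and was at least 3.02-fold lower there, with levels of -3.28 and -3.18 with WGP and -1.61 and -1.45 in medium (adjusted p = 0.00242). Its probe was kept only through the medium arrays, where it was higher. Neither this adjusted p nor the calls of Mrm2 in other fits therefore add independent support. Afg3l2, Rbfa, Nsun4 and Mrm2 kept their calls in all 4 fits that left out 1 array. With normexp and the 75th percentile, Nsun4 (-0.15) and Mrm2 (-0.11) did not pass, and Afg3l2 (1.13) and Rbfa (-0.97) did. The bound for Mrm2 leaves out the spread between arrays and holds only for the background correction and scaling used here.

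Of 14 tested genes that copy, transcribe or process mitochondrial DNA and its RNA, 6 rose (42.9%) and 1 fell (7.14%), with a median of 0.35. Over all genes tested, 23.2% rose and 17.4% fell. Tfb2m, a transcription initiation factor, rose by 1.12 (adjusted p = 0.0215), Polg, the catalytic subunit of the mitochondrial DNA polymerase, by 0.79 (0.00916), and Tfam, which packages the DNA, by 0.53 (0.0224). Polg2, the accessory subunit of that polymerase, fell by 1.15 (0.0130). Polg and Polg2 kept their calls in 3 of the 4 fits without 1 array, Tfb2m in 2 and Tfam in 0. With normexp and the 75th percentile the differences were 0.45 for Tfb2m, 0.29 for Polg, 0.17 for Tfam and -0.18 for Polg2, of which Tfam and Polg2 did not pass, and the mean of its probes gave 0.026 for Tfam (adjusted p = 0.878). Of 9 tested regulators of mitochondrial biogenesis, 2 rose and 0 fell: Pprc1, a coactivator related to PGC-1, by 0.64 (0.0192, kept in 0 of 4) and Gabpb1, a subunit of GABP, by 0.63 (0.0113, kept in 2 of 4). With normexp and quantile normalization Pprc1 did not pass (0.21, adjusted p = 0.0566), while Gabpb1 did (0.41). Gabpa, also a subunit of GABP (-0.16), Nrf1 (0.24) and Yy1 (0.19) did not pass, and Myc, Ppargc1a and Ppargc1b were too dim to be tested.

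RefSeq promoters of 300 bases, 250 before the start and 50 after it, were found for 65 of the 74 tested members, and 6 sequences were searched for on both strands. The GABP letters CCGGAAG were in 36.9% of the members' promoters, in 11.9% of all 17492 promoters and in 18.4% of those of tested genes. The NRF1 letters (GCGCA and GCGC with any 1 base between them) were in 20.0% of the members' promoters, 6.60% of all and 10.4% of those of tested genes. The YY1 letters ATGGCGG were in 16.9%, 5.41% and 8.44% in the same order. For the SP1 letters GGGCGG the shares were 49.2%, 46.3% and 62.1%, for the E-box CACGTG 7.69%, 7.90% and 10.5%, and the letters of NF-kappaB (GGGA and TTTCC with any 1 base between them) were in 0 of the 65. In 2 of the members' promoters, matches of different motifs shared bases.

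GABP letters stood in 29.4% of the 17 promoters of members that rose, in 0 of the 5 of members that fell and in 44.2% of the 43 of members that did not pass. NRF1 letters stood in 11.8%, 40.0% and 20.9% of them in the same order. Of the sequences printed above, that of Mrpl52 holds the GABP letters, those of Mrps18b (2 matches), Mrpl42 and the stretch between Mrpl46 and Mrps11 hold the SP1 letters, and the stretch between Mrpl30 and Mitd1 holds none of the 6. These matches describe letters only.

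Many of these genes start head to head with a gene on the other strand: 22 of the 65 had such a partner within 1000 bases, and in 17 pairs both genes were tested. In 0 pairs did both genes pass in the same direction, and in 1 pair they passed in opposite directions. In 7 pairs only the member passed, in 5 only the partner, and in 4 neither. With 23.2% of all genes tested called higher and 17.4% lower, few of 17 unrelated pairs would pass in the same direction. No share for unrelated pairs was computed, so these counts are descriptions and do not show that paired genes change separately. Mrpl46 and Mrps11, both members, start 42 bases apart. Mrps11, the counterpart of bacterial S11, had levels of -0.87 and -1.07 with WGP and -0.83 and -1.12 in medium, a difference of 0.0039 ± 0.15 (adjusted p = 0.985), while Mrpl46 rose by 1.14. The change of Mrpl46 exceeded that of Mrps11 by 0.90 on slide 1 and 1.38 on slide 2. No test of this difference was run.

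Mrpl30 and Mitd1, a protein of cell division, start 66 bases apart. Mrpl30 fell, while Mitd1 had levels of -1.85 and -1.89 with WGP and -2.17 and -2.47 in medium, a difference of 0.45 ± 0.14 that did not pass (adjusted p = 0.0643). Mrpl41 and Pnpla7, a lysophospholipase, start 935 bases apart and moved in opposite directions, with Pnpla7 at 0.61 and 0.71 with WGP and 1.56 and 1.66 in medium, a difference of -0.95 ± 0.10 (adjusted p = 0.00593). Mrpl27, the counterpart of bacterial L27, starts 48 bases from Eme1, a DNA repair endonuclease subunit. Eme1 had 0.080 and 0.013 with WGP and -0.98 and -1.06 in medium and rose by 1.06 (adjusted p = 0.00430), while the difference of Mrpl27 was 0.30 ± 0.11 and did not pass (adjusted p = 0.106). These pairs were chosen after their values were seen.

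**Figure D5:**
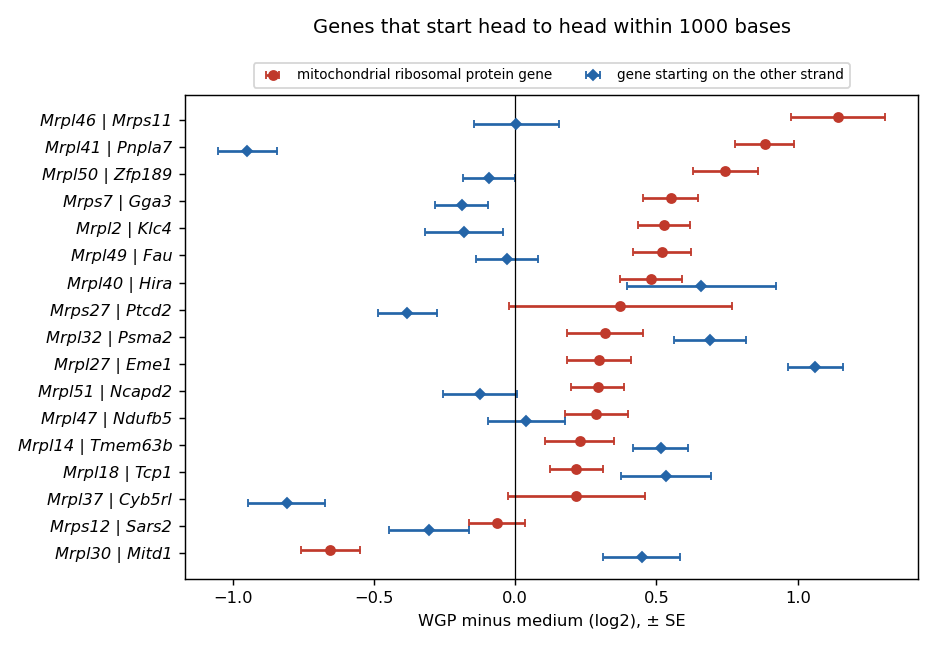
Difference between WGP and medium (log2 ± SE, horizontal axis) for 17 pairs of genes that start on opposite strands within 1000 bases of each other (vertical axis). Red circles are the mitochondrial ribosomal protein gene and blue diamonds its neighbour, and for Mrpl46 and Mrps11 the points stand at 1.14 and 0.0039.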

How the data were processed

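The deposited scanner files hold spot intensities. The submitters' processing notes name Agilent Feature Extraction 10.7.3. Per the file headers, the processed intensity is background-subtracted and not normalized between arrays. Over 44397 spots, the third medium file differed by at most 0.695% from the average of the first 2 and was left out. WGP replicate 3 was 1.30 times replicate 1 within 0.498% and was averaged into it, so n = 2 per group, and this number limits the precision. The authors' deposited log2 table, used as an alternative, matched log2 of the processed intensity minus the 75th percentile after centring each probe (r = 0.999906, largest difference 0.00996, 39394 probes). Its column medians were 0.0998 and 0.130 for WGP and -0.0144 and 0.164 for medium, and the baseline of its centring is unknown.

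Control (1377) and outlier spots were removed, log2 intensity was centred on each array's 75th percentile, and 18458 of 39429 probes were kept, those that both arrays of either group flagged as well above background. Accessions named 26761 probes through the GRCm38.p6 RefSeq table, and the brightest kept probe stood for a gene. limma 3.58.1 (R 4.3.3; lmFit, eBayes) compared WGP with medium, two-sided, with Benjamini-Hochberg adjustment over 10947 genes and a threshold of 0.05, with 2 residual and 2.19 prior degrees of freedom. The fit was tested on simulated data. No probe was saturated. Replicate numbers mark slides, and the correlation of replicate deviations was 0.14 over 2 pairs.

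Members and lists were chosen with earlier results of these data known. Named are the 10 largest rises and every fall among called members, the 3 members with the largest differences that did not pass, members with probes of opposite sign or dim in 1 group, the S18 homologues, the stalk proteins, and up to 4 called genes of each pathway list with the largest changes. Other genes and pairs were named after their values were seen. Alternatives changed the scaling, background correction, filter, probe rule, slide block and arrays used. Pseudogenes of Mrpl23, Mrpl27, Mrpl48 and Mrps36 exist, and whether their transcripts reach these probes was not tested. Probe sequences and proteins were not used here.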

Additional observations from a re-analysis of the deposited data

How the results depend on the processing

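No called member turned direction under any of the 15 other settings. Of the 25 calls, 3 (Mrpl52, Mrps18b and Mrps28) held in every setting, 3 (Mrpl20, Mrpl41 and Mrpl46) were lost only without the filter on dim probes, 8 only there or with an array left out, and 11 elsewhere too. Leaving out 1 array at a time gave 2257 to 3281 genes called instead of 4441, 7 to 14 members higher instead of 20 and 0 to 5 lower instead of 5, with a median difference of 0.21 to 0.23. Without WGP array 1, 8 of the 25 calls held, without WGP array 2, 7, without medium array 1, 16, and without medium array 2, 12, with the lone array assumed to vary like the other group. Without the filter on dim probes, 1532 genes were called, with 3 members higher and 0 lower, over 20274 genes. Taking every file as its own sample gave 7452 genes, 40 members higher and 11 lower, as copied files count as replicates there. Scaling to the array median gave 1 member lower, a median difference of 0.39 and 72.7% of all calls higher, against 57.2% with the 75th percentile. Members higher numbered 30 there, and the cause was not tested. The members' median was 0.13 with quantile normalization, 0.10 with normexp and the 75th percentile, 0.097 with normexp and quantile normalization (normexp used the median signal, the mean not being in the files used), 0.24 with probes above background on every array and 0.20 with the mean over a gene's probes. With either normexp setting, 13 of the 25 called members had differences over 1.5 times smaller. Under these settings the members' median exceeded that of all genes by 0.062 to 0.19. With the slide as the replicate block, which pairs 1 array of each group, 4090 genes were called, with 17 members higher and 4 lower and a median of 0.22, and 4 calls were lost (Mrpl22, Mrpl24, Mrpl53 and Mrps2). Signal over background limits Mrps9, Mrps35 and the 4 untested members.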
